A study of Mus musculus with 11 samples.

Results

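The axon guidance ligands and receptors described here are the 65 protein-coding genes, of 25509 genes in the authors' comparison tables, whose symbols place them among the semaphorins (20 genes), neuropilins (2), plexins (9), ephrins (8), Eph receptors (13), Slits (3), Robos (4), netrins (2) and Unc5 receptors (4). The members were chosen by name and not by their values, though with earlier results of these data known. RNA was measured in 11 libraries of cells sorted from the adrenal glands of male mice. All groups came from the Nes-GFP strain, in which a green fluorescent protein (GFP) reports the activity of Nestin, an intermediate filament gene of neural and other progenitors, and no further allele or treatment is named. Cells were divided by tissue (cortex or medulla) and by gate (GFP+ or GFP-), with 3 libraries each of cortex GFP+, cortex GFP- and medulla GFP+ cells and 2 of medulla GFP- cells.

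The 6 mice were combined into 3 pools of 2, and each library started from 180 to 300 cells. The mice were about 3.5 months old for libraries 1 and 2 of both cortex groups, medulla GFP+ library 1 and both medulla GFP- libraries, and about 2.5 months old for the remaining 4 libraries. In the medulla, age and gate were therefore partly confounded. Age was also unbalanced between the tissues. Older libraries were 2 of 3 in cortex GFP+ and 1 of 3 in medulla GFP+ cells. In GFP- cells they were 2 of 3 in the cortex and 2 of 2 in the medulla. The labels do not tie libraries to pools, so p-values measure the spread between these libraries, which may be partly technical. A sorted sample is a bulk sample, so that fewer cells of a type and less RNA per cell cannot be told apart.

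Axon guidance molecules were named for steering growing nerve fibres, and the same ligands and receptors are used by blood vessels, immune cells and glia. Secreted class 3 semaphorins act through neuropilin and plexin complexes, whereas membrane-bound semaphorins act mainly through plexins alone. Ephrins and Eph receptor kinases signal between touching cells, Slits repel through Robo receptors, and netrins attract through Dcc and repel through Unc5 receptors. The adrenal medulla is densely innervated by preganglionic sympathetic fibres, and both its chromaffin cells and its glia derive from the neural crest.

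Libraries held 18500690 to 29204212 counts assigned to genes, so that 3 counts, the limit allowed by a count of 0, corresponded to 0.103 to 0.162 CPM (counts relative to library size, scaled by trimmed mean normalization). This limit covers counting error only. The Nes transcript lay at 35.3 to 50.9 CPM in cortex GFP+ and 4.59 to 7.44 CPM in cortex GFP- libraries, and at 69.2 to 178 CPM in medulla GFP+ and 16.1 to 26.1 CPM in medulla GFP- libraries. The gates also differed in markers of cell types. The summed level of 8 Schwann and glial markers was 198 to 291 CPM in cortex GFP+, 2.95 to 10.8 in cortex GFP-, 1852 to 4311 in medulla GFP+ and 15.3 to 24.3 in medulla GFP- libraries, with Sox10 and Foxd3 at 0 in the last group. That of 8 macrophage markers was 42.5 to 174, 1954 to 3324, 206 to 492 and 10029 to 11445 CPM in the same order. Chromaffin markers (8 genes) summed to 5.93 to 104 CPM in cortex GFP+ and 0.748 to 3.70 in cortex GFP- libraries, against 5155 to 9216 and 4991 to 7750 in medulla GFP+ and GFP- libraries. Pnmt was at 0 in both cortex groups, and Dbh and Chgb also in cortex GFP- libraries. Steroid cell markers (7 genes) summed to 34131 to 65334 CPM in the cortex libraries and still to 8065 to 35684 CPM in the medulla libraries. Pericyte and smooth muscle markers (8 genes) summed to 62.4 to 226 CPM in cortex GFP+ and 1.30 to 6.21 CPM in cortex GFP- libraries, with 5 of 8 called higher in cortex GFP+ cells, and to 110 to 268 and 133 to 149 CPM in medulla GFP+ and GFP- libraries, with 2 of 8 called higher. Fibroblast markers (6 genes) summed to 45.7 to 111 and 3.51 to 24.4 CPM in the cortex gates, where 1 was called higher, and to 66.8 to 301 and 61.8 to 64.1 CPM in the medulla gates, where 1 was called higher and 2 lower. Endothelial markers (8 genes) summed to 78.4 to 894 CPM over all libraries, with 0 called between the gates of either tissue. The part of these cell types in the results below was not tested, apart from the values given beside them.

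**Figure D1:**
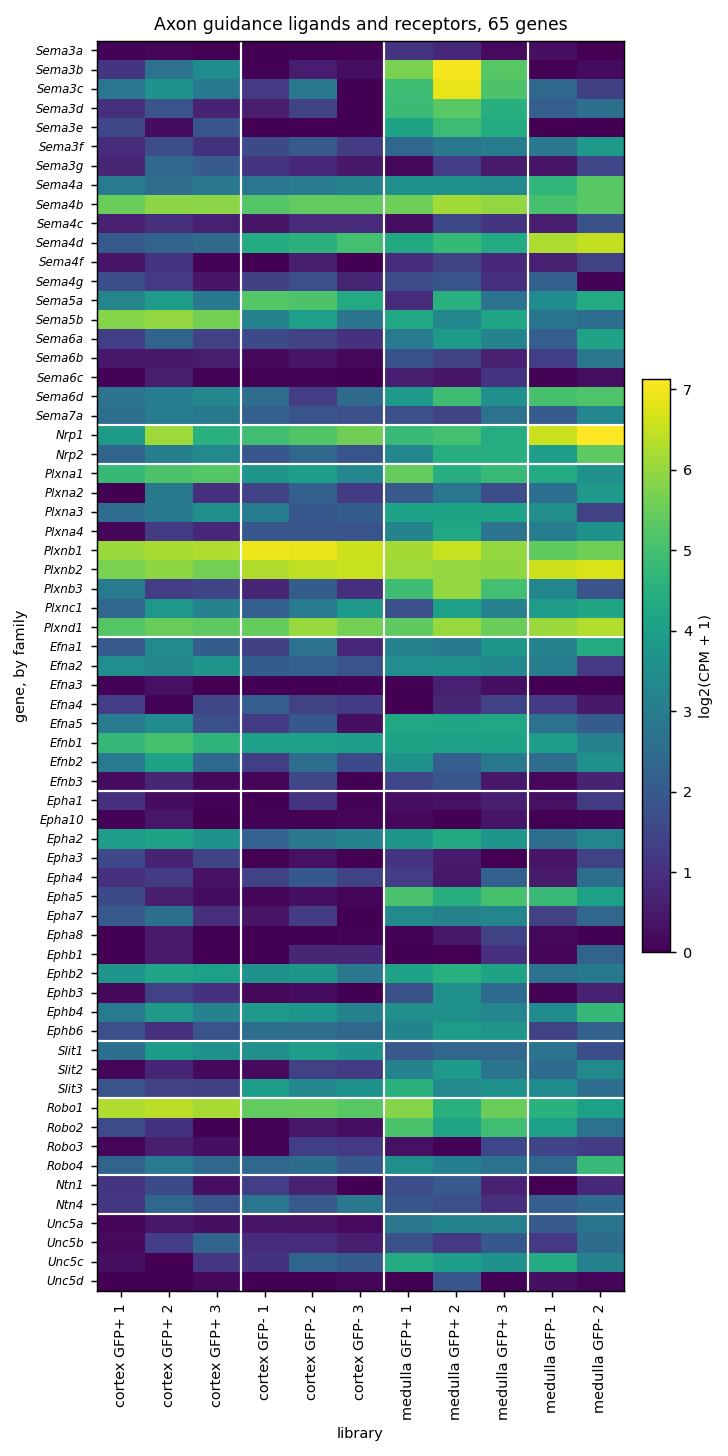
Level of each of the 65 members (rows, by family) in each of the 11 libraries (columns, by group), as log2(CPM + 1) by colour. The class 3 semaphorins Sema3b, Sema3c, Sema3d and Sema3e are brightest in the 3 medulla GFP+ libraries, and Sema4d and Nrp1 in the 2 medulla GFP- libraries.

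Members were counted as detected where their group mean reached 1 CPM. This held for 53 members in medulla GFP+ cells, 51 in medulla GFP-, 45 in cortex GFP+ and 40 in cortex GFP- cells. A total of 58 reached it in some group, and 7 lay below 1 CPM in all 4. The filter on low counts was passed by 61 members, all but Epha8, Epha10, Efna3 and Unc5d. Of the 61 tested, 32 passed an adjusted p of 0.05 (edgeR quasi-likelihood test, Benjamini-Hochberg adjustment over all 20893 genes tested) in at least 1 of 4 comparisons, and 29 passed in none. Of all genes tested, 38.5% passed in at least 1 of the 4. A single member, Sema4d, passed in all 4 comparisons, as did 2.1% of all genes.

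Between gates in the cortex, 7 members were higher and 4 lower in GFP+ cells, which is 18% of the 61, where 14.7% of all genes tested were called (7.14% higher and 7.59% lower). The count of members was near this background. Groups did not overlap for 22 members (14 higher and 8 lower), against 38.2% of all genes (18.8% higher and 19.4% lower). Between gates in the medulla, 10 were higher and 4 lower in GFP+ cells (23.0%), where the background was 21.4% called (10.2% higher and 11.1% lower). The medulla groups did not overlap for 28 members (21 higher and 7 lower), against 48.1% of all genes (25.6% higher and 22.5% lower). Leaving out medulla GFP+ library 3 left 8 members called in the medulla, where 3589 of 20562 genes were called, against 4461 in the main fit. The calls lost without medulla GFP- library 2, which leaves 1 library in that group, are given beside each gene. Leaving out cortex GFP+ library 1 or 2, or cortex GFP- library 1 or 3, left 7 in the cortex. Over all genes these cortex refits called 1959 to 2405, against 3078 in the main fit. With DESeq2, 19 members were called in the cortex (12 higher and 7 lower). Over all genes DESeq2 called 4558 of 20893 there (2221 higher and 2337 lower).

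Between tissues, the members were mostly lower in the cortex. In GFP+ cells 2 were higher and 15 lower in the cortex than in the medulla (27.9% called), where 15.5% of all genes were called, 6.04% higher and 9.45% lower, so that the 24.6% of members called lower stood above the background for that direction. The groups did not overlap for 29 members (4 higher and 25 lower), against 34.5% of all genes (16.0% higher and 18.5% lower). In GFP- cells 3 were higher and 10 lower (21.3% called), where 18.6% of all genes were called (8.06% higher and 10.6% lower), and groups did not overlap for 31 members (5 higher and 26 lower), against 49.5% of all genes (23.4% higher and 26.1% lower). Leaving out medulla GFP- library 2 leaves 1 library in that group, and the calls lost in that refit are given beside each gene. The median log2 difference of the 61 members was -0.85 in GFP+ and -1.12 in GFP- cells, beside -0.03 and -0.02 over all genes tested. For the gates it was 0.60 in the cortex and 0.07 in the medulla, beside 0.03 and 0.09. Setting Sema3e, which has no count in the GFP- groups, at its lower bound left both medians unchanged. It could not move them, since that bound also lies above them. The comparisons share libraries and are not independent of each other. Including the interaction described further on, members had 58 calls, of which 20 were kept in a fit of the 7 libraries of older mice, where medulla GFP+ cells have 1 library, and 0 changed direction. The calls lost there are named beside each gene with their adjusted p.

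**Figure D2:**
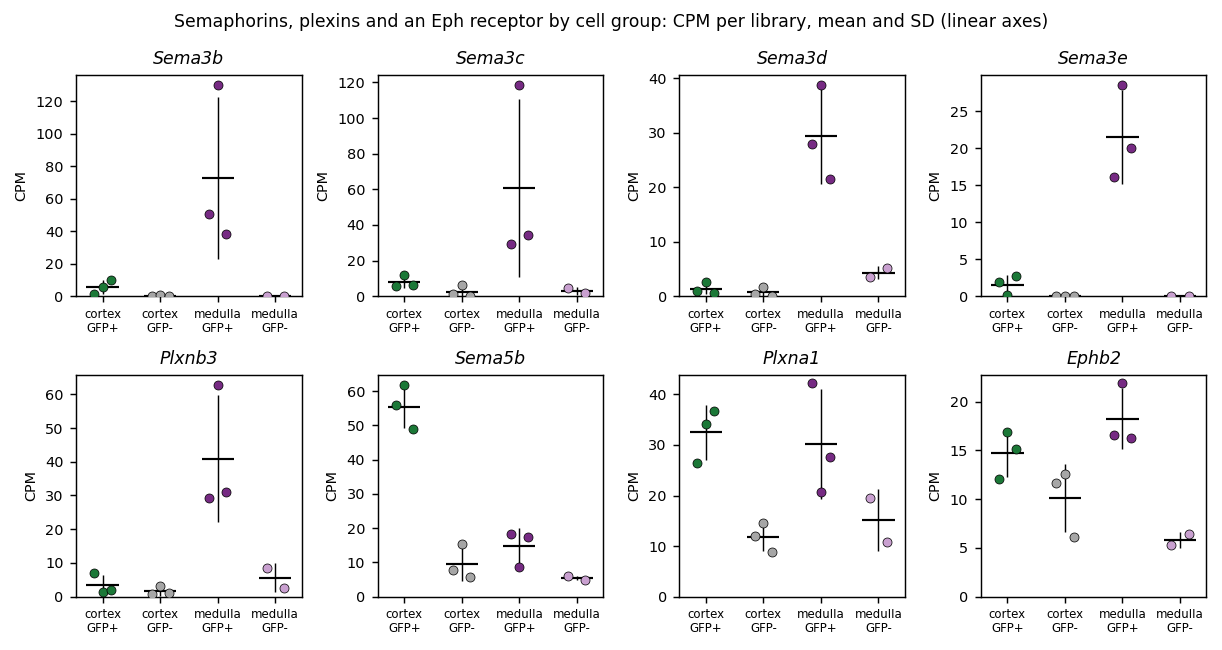
CPM (linear axes) of the semaphorins Sema3b, Sema3c, Sema3d, Sema3e and Sema5b, the plexins Plxnb3 and Plxna1 and the Eph receptor Ephb2 in each library by group. Points are libraries, horizontal bars group means and vertical bars SD. Sema3e is at 0 in all 5 GFP- libraries, and Sema5b is highest in the 3 cortex GFP+ libraries (48.9 to 61.6 CPM).

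Among the secreted semaphorins, Sema3e, a ligand that binds plexin D1 without a neuropilin, was the member most restricted to GFP+ cells. It lay at 16.1, 28.5 and 20.1 CPM in medulla GFP+ libraries 1 to 3 and at 1.87, 0.172 and 2.70 CPM in cortex GFP+ libraries 1 to 3, and had no count in any of the 5 GFP- libraries. With 1517 counts against 0, Sema3e was at least 391-fold higher in medulla GFP+ than GFP- cells, and with 106 counts against 0 at least 41.3-fold higher in the cortex (against 3 counts over the GFP- group, adjusted p = 0.00345 and 0.0123 by edgeR). It was lower in cortex than in medulla GFP+ cells (log2 -3.77, SE 0.85, adjusted p = 0.0254). Most of the cortex counts came from libraries 1 and 3, and library 2 was near the limit of detection.

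Sema3b, another secreted ligand, was at 50.6, 130 and 38.1 CPM in medulla GFP+ libraries and at 0 and 0.162 CPM in medulla GFP- libraries. In the cortex it was at 1.16, 5.45 and 10.0 CPM in GFP+ and 0.0373, 0.477 and 0.197 CPM in GFP- libraries. Neither pair of gates overlapped. The fitted log2 differences were 9.78 (SE 1.45, adjusted p = 0.00116) in the medulla, where the GFP- group held 4 counts, and 4.51 (SE 0.98, adjusted p = 0.0127) in the cortex. Among GFP+ cells Sema3b was lower in the cortex, with a log2 difference of -3.72 (SE 0.81, adjusted p = 0.0132).

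Sema3c, which attracts or repels depending on the cell, was at 29.4, 119 and 34.3 CPM in medulla GFP+ and 4.35 and 1.54 CPM in medulla GFP- libraries, a log2 difference of 4.36 (SE 1.37, adjusted p = 0.0467). In the cortex it was at 5.92, 11.7 and 6.44 CPM in GFP+ and 1.27, 6.28 and 0 CPM in GFP- libraries, where the ranges overlapped (adjusted p = 0.329). Sema3d was at 28, 38.8 and 21.5 CPM in medulla GFP+ and 3.51 and 5.16 CPM in medulla GFP- libraries without passing the test (log2 2.76, SE 1.03, adjusted p = 0.0846). It was called between tissues in GFP+ cells, with cortex libraries at 0.935, 2.53 and 0.631 CPM (log2 -4.42, SE 0.96, adjusted p = 0.0127). Sema3d, Sema3a, Sema3e and Sema3c follow one another on chromosome 5 of mm10, at chr5:12383385-12588948, chr5:13125414-13602565, chr5:14025276-14256689 and chr5:17574281-17730268. Sema3a, the classical growth cone repellent, lies between them and was near the limit of detection, at 0.157 to 1.08 CPM in medulla GFP+ libraries and at most 0.219 CPM elsewhere, and was called in no comparison.

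The promoters of the neighbours Sema3d and Sema3e are shown because both genes were highest in medulla GFP+ cells. Each sequence is the 250 bases before the RefSeq transcription start (GRCm38.p6), read 5′ to 3′ along the gene. The Sema3d window is chr5:12382916-12383165 on the plus strand, and its capitals mark 2 matches, 1 on each strand, to the core ACAAAG recognised by SOX factors.
Sema3d: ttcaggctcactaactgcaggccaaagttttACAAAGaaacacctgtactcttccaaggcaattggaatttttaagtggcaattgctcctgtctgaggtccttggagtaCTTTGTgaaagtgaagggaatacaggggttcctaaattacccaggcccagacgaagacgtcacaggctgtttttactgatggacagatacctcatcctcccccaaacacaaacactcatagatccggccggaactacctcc
The Sema3e window is chr5:14025026-14025275 on the plus strand, and its capitals mark 2 matches, 1 on each strand, to the GC box GGGCGG.
Sema3e: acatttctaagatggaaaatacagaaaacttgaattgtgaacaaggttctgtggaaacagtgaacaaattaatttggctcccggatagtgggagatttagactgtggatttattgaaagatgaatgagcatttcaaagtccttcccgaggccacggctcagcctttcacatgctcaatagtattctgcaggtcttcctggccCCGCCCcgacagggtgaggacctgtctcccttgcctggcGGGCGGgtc
No SOX core lay in the Sema3e window, which says only that these letters are absent from these 250 bases. Sema3c, also highest in medulla GFP+ cells, has a window with 3 GC boxes and no SOX core, which is not shown. Sema3b had no entry in the promoter table used.

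Sema3f, a ligand with preference for neuropilin 2, was called between tissues, and its gate differences did not pass the test (log2 -0.62, SE 0.49, adjusted p = 0.441 in the cortex and log2 -0.76, SE 0.53, adjusted p = 0.348 in the medulla). It was at 0.891, 2.23 and 1.08 CPM in cortex GFP+ and 4.28, 6.26 and 7.0 CPM in medulla GFP+ libraries (log2 -2.06, SE 0.50, adjusted p = 0.0215), and at 2.02, 3.08 and 1.38 CPM in cortex GFP- against 6.28 and 13.6 CPM in medulla GFP- libraries (log2 -2.20, SE 0.53, adjusted p = 0.0189). Sema3b and Sema3f are neighbours on chromosome 9 (chr9:107597674-107609229 and chr9:107681500-107710475). Sema3g, at 0.103 to 4.21 CPM over all libraries, was called in no comparison.

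Sema3b, Sema3c, Sema3d and Sema3e each had their highest value in medulla GFP+ library 2, the library in which the glial markers summed to 4311 CPM, against 1852 and 2095 CPM in libraries 1 and 3. Of the 8 glial markers, 7 were called higher in GFP+ cells in each tissue, and 7 lower in cortex than in medulla GFP+ cells. The part of the glial content in the class 3 semaphorin results was not tested. Leaving out single libraries ended none of the gate calls of Sema3e and not the medulla gate call of Sema3b. The cortex call of Sema3b was lost without cortex GFP- library 3 (adjusted p = 0.0546) and its tissue call without medulla GFP+ library 2 (0.0586). The medulla call of Sema3c was lost without any 1 of the 5 medulla libraries (0.0549 to 0.217), the tissue call of Sema3d without cortex GFP+ library 1 (0.0505), and that of Sema3e without cortex GFP+ library 1 or medulla GFP+ library 2 or 3 (0.0533 to 0.0770). The calls of Sema3f were lost without cortex GFP+ library 1 or 3 or medulla GFP+ library 2 or 3 (0.0541 to 0.0786), and, in GFP- cells, without cortex GFP- library 1 or 3 or medulla GFP- library 2 (0.0586 to 0.179). With the older mice only, the cortex gate calls of Sema3e (0.137) and Sema3b (0.169) were lost, as were the medulla gate call of Sema3c (0.102) and the tissue calls of Sema3e (0.285), Sema3b (0.188), Sema3d (0.0729) and Sema3f (0.419 in GFP+ and 0.119 in GFP- cells). The medulla gate calls of Sema3e and Sema3b were kept. The cortex call of Sema3b was also lost with voom (0.176), and the call of Sema3c with age as a factor (0.0762).

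Sema5b, a membrane semaphorin with thrombospondin repeats, was the one semaphorin called higher in the cortex. It was at 55.9, 61.6 and 48.9 CPM in cortex GFP+ libraries, and at 7.84, 15.4 and 5.71 CPM in cortex GFP- libraries. Medulla GFP+ libraries had 18.1, 8.59 and 17.5 CPM and medulla GFP- libraries 5.88 and 4.92 CPM. All cortex GFP+ libraries lay above all others. The log2 differences were 2.52 (SE 0.39, adjusted p = 0.00230) between gates in the cortex, 1.44 (SE 0.44, adjusted p = 0.0414) in the medulla and 1.92 (SE 0.38, adjusted p = 0.00869) between tissues in GFP+ cells. The medulla call was lost without medulla GFP+ library 1 or 3 or either medulla GFP- library (0.0977 to 0.191), and the other calls held in every such refit. The older mice alone kept the cortex gate call and lost the medulla gate call (0.0558) and the tissue call (0.136), and the medulla gate call was also lost with voom (0.0838) and with only the groups compared (0.0777). Its relative Sema5a, at 8.55, 14.4 and 6.40 CPM in cortex GFP+ and 37.0, 34.5 and 19.4 CPM in cortex GFP- libraries, did not overlap between these groups and was not called (log2 -1.63, SE 0.83, adjusted p = 0.222). Steroid cell markers summed to 58999 to 65334 CPM in cortex GFP+ and 34131 to 38969 CPM in cortex GFP- libraries. Of the 7 genes, 2 were called higher and 1 lower in cortex GFP+ cells. Star and Cyp11b1 were higher there, whereas Cyp11b2, the aldosterone synthase, was at 62.5 to 103 CPM in GFP+ against 958 to 1395 CPM in GFP- libraries. Between the medulla gates 4 were called higher and 1 lower in GFP+ cells. All 7 were called higher in cortex than in medulla GFP+ cells. Of the 8 pericyte and smooth muscle markers, 5 were called higher in cortex GFP+ cells, as was Sema5b, and the part of these cell types was not tested.

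Sema4d, a membrane ligand of plexin B1 that is abundant on leukocytes, was lower in GFP+ cells and lower in the cortex. Cortex GFP+ libraries had 3.07, 3.82 and 4.50 CPM and cortex GFP- libraries 19.8, 22.9 and 31.1 CPM. Medulla GFP+ libraries had 19.1, 26.3 and 19.4 CPM and medulla GFP- libraries 74.9 and 88.3 CPM. Within each tissue and within each gate the ranges were apart. The log2 differences were -2.69 (SE 0.24, adjusted p = 0.000163) and -1.92 (SE 0.24, adjusted p = 0.000502) for the gates in cortex and medulla, and -2.51 (SE 0.24, adjusted p = 0.000266) and -1.73 (SE 0.24, adjusted p = 0.00181) between tissues in GFP+ and GFP- cells.

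Sema4a, an immune and vascular semaphorin, was at 25.1 and 37.7 CPM in medulla GFP- and 11, 11.8 and 9.50 CPM in medulla GFP+ libraries (log2 -1.55, SE 0.27, adjusted p = 0.00277). Cortex libraries lay at 4.81 to 6.77 CPM in GFP+ and 5.90 to 8.19 CPM in GFP- cells, and the tissues differed by -2.18 in GFP- cells (SE 0.27, adjusted p = 0.00105) and by -0.85 in GFP+ cells (SE 0.25, adjusted p = 0.0428). Sema4b, at 32.3 to 69.2 CPM the most evenly expressed of this class, was higher in medulla GFP+ cells by 0.73 (SE 0.21, adjusted p = 0.0304). Macrophage markers were called lower in GFP+ cells for 8 of 8 genes in each tissue. They were called lower in the cortex than in the medulla for 6 of 8 genes in GFP- cells and 2 of 8 in GFP+ cells. Sema4d was called lower in all 4 of these comparisons and Sema4a in all but the cortex gate. The part of the macrophage markers was not tested. No call of Sema4d, and not the Sema4a calls of the medulla gate and of GFP- cells, depended on 1 library. The Sema4a call in GFP+ cells was lost without any 1 of the 6 GFP+ libraries (0.0552 to 0.130), and that of Sema4b without any medulla library but GFP+ library 1 (0.0684 to 0.163). In the older mice alone the calls of Sema4a in the medulla gate (0.0990) and in GFP+ cells (0.338) and that of Sema4b (0.479) were lost, and the 4 calls of Sema4d and the GFP- tissue call of Sema4a were kept. The Sema4a call in GFP+ cells was also lost with voom (0.0761), without a filter (0.0914), with only the groups compared (0.0782) and with age as a factor (0.0779), and the Sema4b call with only the groups compared (0.120) and with age as a factor (0.111).

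The class 6 semaphorins, membrane ligands of A-class plexins, were called only between tissues in GFP- cells, and lower in the cortex. Sema6d was at 4.89, 1.47 and 4.49 CPM in cortex GFP- and 31.9 and 34.9 CPM in medulla GFP- libraries (log2 -3.21, SE 0.53, adjusted p = 0.00374). Sema6b was at 0.112, 0.330 and 0.118 against 1.5 and 6.05 CPM (log2 -4.29, SE 0.86, adjusted p = 0.00869), and Sema6a at 2.05, 1.58 and 1.02 against 3.36 and 16.2 CPM (log2 -2.65, SE 0.68, adjusted p = 0.0235). In GFP+ cells their adjusted p over the tissues did not reach 0.05, being 0.0964 for Sema6d and 0.0543 for Sema6a, and whether the 2 gates differed was covered by the interaction, which called none of them. The Sema6b call was lost without medulla GFP- library 2 (0.0897) and the Sema6a call without any library of the comparison but medulla GFP- library 1 (0.0507 to 0.368). Both were lost in the older mice alone (0.0601 and 0.131), which kept the Sema6d call, and the Sema6a call was also lost with voom (0.0577).

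**Figure D3:**
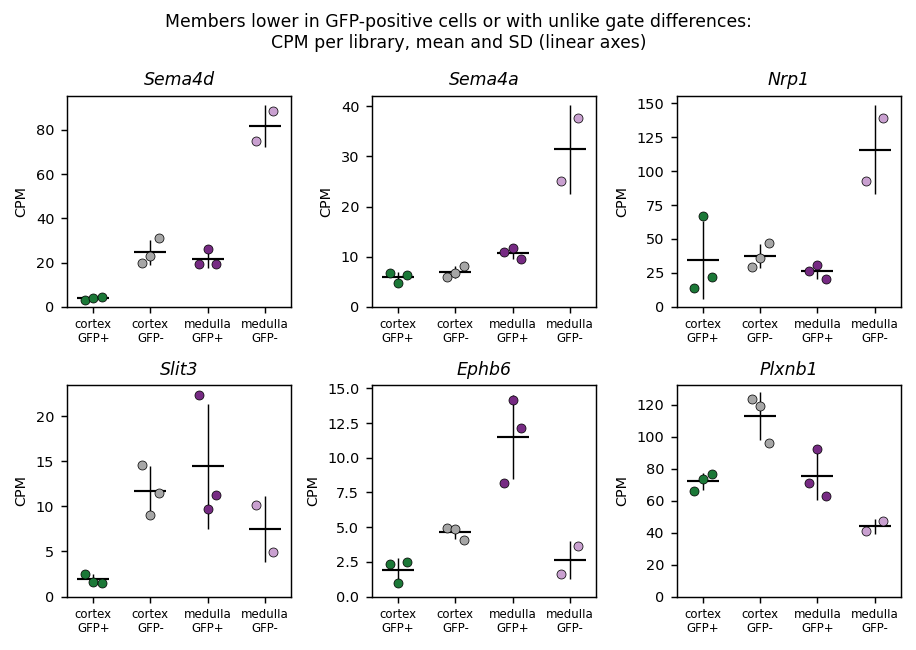
CPM (linear axes) of Sema4d, Sema4a, Nrp1, Slit3, Ephb6 and Plxnb1 in each library by group, with points for libraries, horizontal bars for group means and vertical bars for SD. Sema4d, Sema4a and Nrp1 are highest in the 2 medulla GFP- libraries, and Slit3 and Ephb6 have their lowest mean in cortex GFP+ cells and their highest in medulla GFP+ cells.

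Of the receptors of the semaphorins, Nrp1, a co-receptor of class 3 semaphorins and of vascular endothelial growth factor, was at 92.8 and 139 CPM in medulla GFP- and 26.7, 31.1 and 20.3 CPM in medulla GFP+ libraries (log2 -2.15, SE 0.54, adjusted p = 0.0176). In the cortex it was at 13.8, 67.0 and 21.8 CPM in GFP+ and 29.6, 35.8 and 47.2 CPM in GFP- libraries, and the ranges overlapped. Nrp2 was at 2.84, 4.08 and 2.64 CPM in cortex GFP- and 14.8 and 39.9 CPM in medulla GFP- libraries (log2 -3.10, SE 0.53, adjusted p = 0.00416), and at 4.05 to 9.28 and 8.88 to 21.2 CPM in cortex and medulla GFP+ libraries, where it was not called (adjusted p = 0.0939). The summed endothelial markers (8 genes) were highest in the same library as Nrp1 in 2 groups, at 210 CPM in cortex GFP+ library 2 and 894 CPM in medulla GFP- library 2, and in another library than Nrp1 in the other two groups. Their part, and that of the macrophage markers, all 8 of which were lower in medulla GFP+ cells, was not tested. The Nrp1 call was lost without medulla GFP- library 2 or medulla GFP+ library 3 (0.0589 to 0.100), whereas the Nrp2 call held without any 1 library. The Nrp1 call was also lost with the older mice only (0.216) and with age as a factor (0.0585), and the Nrp2 call was kept in both.

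Plexins were on the whole expressed in all 4 groups. Plxnb1, the receptor of Sema4d, was at 123, 119 and 95.9 CPM in cortex GFP- and 66.2, 73.6 and 76.6 CPM in cortex GFP+ libraries (log2 -0.65, SE 0.17, adjusted p = 0.0276). In the medulla it went the other way, with 71.3, 92.3 and 63.0 CPM in GFP+ and 40.7 and 47.0 CPM in GFP- libraries (log2 0.79, SE 0.19, adjusted p = 0.0152). The GFP- tissues differed by 1.36 (SE 0.19, adjusted p = 0.00193) and the GFP+ tissues overlapped. Plxnb2 was lower in GFP+ cells in each tissue, at 50.7, 59.0 and 49.0 against 76.0, 86.4 and 91.8 CPM in the cortex (log2 -0.68, SE 0.13, adjusted p = 0.00584) and 66.4, 62.2 and 60.2 against 95.8 and 104 CPM in the medulla (log2 -0.67, SE 0.14, adjusted p = 0.00694). Plxnb3, a receptor of Sema5a known from glia, was at 29.1, 62.7 and 31.1 CPM in medulla GFP+ libraries, against 8.58 and 2.56 CPM in medulla GFP- and 6.86, 1.46 and 1.80 CPM in cortex GFP+ libraries. It was higher in medulla GFP+ than GFP- cells (log2 2.88, SE 0.91, adjusted p = 0.0481) and lower in cortex than medulla GFP+ cells (log2 -3.60, SE 0.81, adjusted p = 0.0145). Its highest value fell in medulla GFP+ library 2, as did that of the glial marker sum.

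Plxna1, a signalling partner of the neuropilins, was at 26.5, 34.2 and 36.8 CPM in cortex GFP+ and 12.1, 14.6 and 8.90 CPM in cortex GFP- libraries (log2 1.45, SE 0.32, adjusted p = 0.0139). In the medulla it was at 42.2, 20.8 and 27.7 CPM in GFP+ and 19.4 and 10.8 CPM in GFP- libraries without passing the test (log2 1.00, SE 0.36, adjusted p = 0.0784). Plxna4 was lower in cortex than in medulla GFP+ cells, at 0.0891, 1.37 and 0.721 against 8.26, 18.5 and 5.53 CPM (log2 -3.87, SE 0.77, adjusted p = 0.00851). Plxnd1, the Sema3e receptor prominent in endothelium, lay at 36.5 to 78.5 CPM over all libraries and was called in no comparison (adjusted p = 0.141 to 0.365 over the 4). Calls of Plxnb2 and Plxna4 held without any 1 library, and were lost with the older mice only (0.147 in the cortex and 0.181 in the medulla for Plxnb2, 0.201 for Plxna4). The cortex call of Plxnb1 was lost without any cortex library but GFP- library 3 (0.0552 to 0.0832) and its medulla call without medulla GFP- library 1 (0.0963), while its GFP- tissue call held. The medulla call of Plxnb3 was lost without any 1 of 5 libraries (0.0634 to 0.233), its tissue call without cortex GFP+ library 3 (0.0542), and the Plxna1 call without cortex GFP- library 3 (0.0581). These calls, other than the GFP- tissue call of Plxnb1, were also lost with the older mice only, at 0.0516 and 0.101 for Plxnb1 in cortex and medulla, 0.287 and 0.314 for Plxnb3 and 0.119 for Plxna1. The medulla call of Plxnb1 was further lost with only the groups compared (0.0851), and that of Plxnb3 with age as a factor (0.0723).

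Among the 7 ephrins and 11 Eph receptors tested, 2 ephrins and 4 Eph receptors were called in some comparison. Among the ligands, Efna2 was at 10.2, 8.59 and 11.8 CPM in cortex GFP+ and 3.32, 3.52 and 2.56 CPM in cortex GFP- libraries (log2 1.70, SE 0.50, adjusted p = 0.0470). Efnb1, a transmembrane ephrin, was at 25.7, 32.1 and 23.9 against 15.3, 15.5 and 14.6 CPM (log2 0.85, SE 0.23, adjusted p = 0.0371). Efna5 was at 18, 17.3 and 18.5 CPM in medulla GFP+ and 5.26 and 3.25 CPM in medulla GFP- libraries, and at 2.34 to 9.92 and 0.236 to 2.94 CPM in the cortex gates. It was not called in either tissue (log2 2.07, SE 0.83, adjusted p = 0.105 in the medulla and log2 2.05, SE 0.73, adjusted p = 0.0886 in the cortex). Efnb2, the arterial ephrin, and its receptor Ephb4 were at 1.49 to 16.7 and 6.59 to 26.6 CPM over all libraries and were called in no comparison.

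Of the receptors, Epha5, a neuronal receptor of A-class ephrins, had the largest tissue difference among the members in GFP- cells. It was at 27.5 and 15.4 CPM in medulla GFP- and 0.0747, 0.220 and 0.0788 CPM in cortex GFP- libraries (log2 -7.36, SE 0.86, adjusted p = 0.000792). In GFP+ cells it was at 32.9, 21.1 and 32.4 CPM in the medulla and 1.96, 0.515 and 0.180 CPM in the cortex (log2 -5.02, SE 0.71, adjusted p = 0.00167). The medulla gates did not pass the test (log2 0.42, SE 0.66, adjusted p = 0.707), and the cortex gates missed the threshold (log2 2.77, SE 0.83, adjusted p = 0.0504). Both tissue calls held without any 1 library and with the older mice only. In cortex GFP+ libraries the highest Epha5 value fell in library 1, where chromaffin markers summed to 104 CPM, against 5.93 and 16.5 CPM in libraries 2 and 3, and the part of medullary RNA was not tested. The gene lies on the minus strand at chr5:84054761-84417382, and the window before its start, chr5:84417383-84417632, holds 2 GC boxes, shown in capitals.
Epha5: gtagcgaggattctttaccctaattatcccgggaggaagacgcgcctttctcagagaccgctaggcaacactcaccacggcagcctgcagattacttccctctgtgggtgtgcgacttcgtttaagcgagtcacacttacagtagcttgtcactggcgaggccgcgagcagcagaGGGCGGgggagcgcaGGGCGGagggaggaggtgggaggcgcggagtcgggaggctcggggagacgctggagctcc
The sequence is shown because the gene was called between tissues in each gate and between gates in neither tissue.

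Epha2 was at 14.7, 16.2 and 11.6 CPM in cortex GFP+ and 3.73, 6.17 and 8.07 CPM in cortex GFP- libraries (log2 1.24, SE 0.35, adjusted p = 0.0383). Ephb2, a receptor of transmembrane ephrins, was at 16.6, 21.9 and 16.3 CPM in medulla GFP+ and 5.26 and 6.38 CPM in medulla GFP- libraries (log2 1.65, SE 0.35, adjusted p = 0.00767). Ephb6, an Eph receptor without kinase activity, was at 8.21, 14.2 and 12.2 CPM in medulla GFP+ and 1.64 and 3.62 CPM in medulla GFP- libraries (log2 2.13, SE 0.53, adjusted p = 0.0167), with 2.36, 0.945 and 2.52 CPM in cortex GFP+ libraries (log2 -2.57 against medulla GFP+, SE 0.46, adjusted p = 0.00520). Epha4, at 0.270 to 4.96 CPM, was called in no comparison. The calls of Efna2 (0.0720 to 0.141) and Efnb1 (0.0535 to 0.111) were lost without any 1 cortex library, that of Epha2 without any cortex library but GFP- library 3 (0.0525 to 0.113), and the medulla calls of Ephb2 (0.0580) and Ephb6 (0.107) without medulla GFP- library 1. The tissue call of Ephb6 held. All 6 of these calls were lost with the older mice only, at 0.346 for Efna2, 0.227 for Efnb1, 0.0908 for Epha2, 0.0652 for Ephb2 and 0.261 and 0.204 for the gate and tissue calls of Ephb6. Library totals alone ended the calls of Efna2 (0.0510) and Epha2 (0.0548), the fit without a filter that of Efnb1 (0.0630), and age as a factor those of Efna2 (0.0651) and of the medulla gate for Ephb6 (0.0568).

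**Figure D4:**
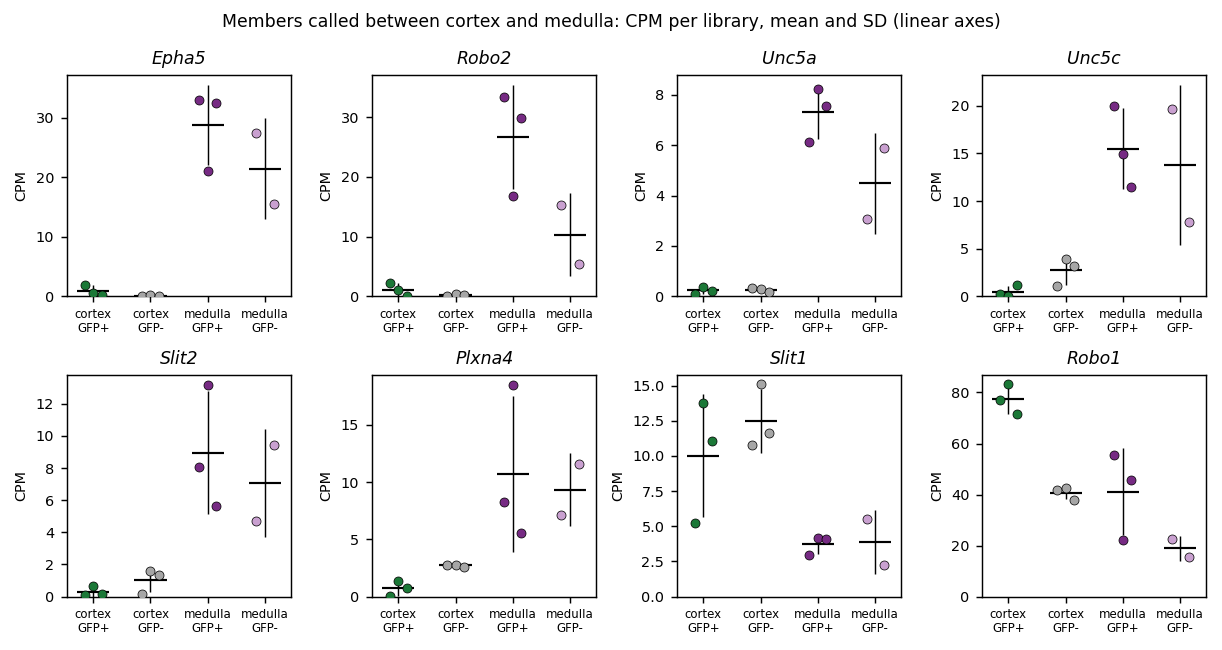
CPM (linear axes) of Epha5, Robo2, Unc5a, Unc5c, Slit2, Plxna4, Slit1 and Robo1 in each library by group, with points for libraries, horizontal bars for group means and vertical bars for SD. Epha5, Robo2 and Unc5a are at most 2.18 CPM in every cortex library, while Slit1 and Robo1 have their lower means in the medulla groups of the same gate.

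The Slit ligands went in different directions. Slit1 was higher in the cortex, at 5.21, 13.8 and 11 against 2.94, 4.14 and 4.13 CPM in GFP+ cells (log2 1.42, SE 0.43, adjusted p = 0.0495) and 10.8, 15.1 and 11.7 against 5.52 and 2.27 CPM in GFP- cells (log2 1.68, SE 0.50, adjusted p = 0.0408). Slit2 was lower in the cortex, at 0.0891, 0.687 and 0.135 CPM against 8.05, 13.1 and 5.64 CPM in GFP+ cells (log2 -4.85, SE 0.98, adjusted p = 0.00901). In GFP- cells Slit2 was at 0.149, 1.62 and 1.34 against 4.68 and 9.46 CPM and missed the threshold (log2 -2.77, SE 0.92, adjusted p = 0.0609). Slit3 was lowest in cortex GFP+ cells, at 2.54, 1.63 and 1.53 CPM, against 14.6, 9.00 and 11.4 CPM in cortex GFP- cells (log2 -2.62, SE 0.44, adjusted p = 0.00339) and 22.4, 9.67 and 11.2 CPM in medulla GFP+ cells (log2 -2.92, SE 0.44, adjusted p = 0.00227). Medulla GFP- libraries had 10.1 and 4.92 CPM of Slit3. Calls of Slit2 and Slit3 held without any 1 library. Those of Slit1 were lost in GFP+ cells without any library of the comparison but cortex GFP+ library 1 (0.0923 to 0.137) and in GFP- cells without any but medulla GFP- library 1 (0.0720 to 0.251). Slit3 kept both calls with the older mice only, where the calls of Slit2 (0.204) and Slit1 (0.387 in GFP+ and 0.144 in GFP- cells) were lost. The Slit1 call in GFP+ cells was also lost with library totals alone (0.0564), with voom (0.0780), without a filter (0.0577), with only the groups compared (0.0594) and with age as a factor (0.0724), and that in GFP- cells with age as a factor (0.0653).

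The Slit receptors Robo1 and Robo2, neighbours on chromosome 16 (chr16:72663149-73046095 and chr16:73892306-74411825), differed in their pattern. Robo1 was at 77.2, 83.5 and 71.7 CPM in cortex GFP+, 42.0, 42.7 and 37.7 CPM in cortex GFP-, 55.6, 22.2 and 45.5 CPM in medulla GFP+ and 22.4 and 15.5 CPM in medulla GFP- libraries. It was called higher in cortex than in medulla GFP- cells (log2 1.11, SE 0.33, adjusted p = 0.0419) and in medulla GFP+ than GFP- cells (log2 1.12, SE 0.33, adjusted p = 0.0362), although the last groups overlapped, and it missed the threshold between the cortex gates (log2 0.93, SE 0.29, adjusted p = 0.0553) and the GFP+ tissues (log2 0.91, SE 0.29, adjusted p = 0.0562). Robo2 was at 33.3, 16.8 and 29.8 CPM in medulla GFP+ and 15.3 and 5.40 CPM in medulla GFP- libraries, against 2.18, 1.07 and 0 CPM in cortex GFP+ and 0.0373, 0.367 and 0.197 CPM in cortex GFP- libraries. The tissues differed by -4.61 in GFP+ cells (SE 1.03, adjusted p = 0.0142) and by -5.65 in GFP- cells (SE 1.17, adjusted p = 0.00982), and the medulla gates did not pass the test (log2 1.36, SE 1.01, adjusted p = 0.385).
Robo2: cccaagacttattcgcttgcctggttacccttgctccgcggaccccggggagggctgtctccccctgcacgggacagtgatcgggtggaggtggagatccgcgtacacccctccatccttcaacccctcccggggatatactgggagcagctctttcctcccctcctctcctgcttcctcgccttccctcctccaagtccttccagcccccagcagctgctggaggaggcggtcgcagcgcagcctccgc
These are the 250 bases at chr16:74411826-74412075 on the minus strand, before the most 3′ of 3 RefSeq starts of Robo2, shown as the counterpart of Epha5, which has the same tissue pattern. They hold no GC box and no SOX core, and therefore no capitals. Robo4, an endothelial receptor, was at 4.27 and 27.3 CPM in medulla GFP- libraries and 2.91 to 10.8 CPM elsewhere, was called in no comparison and was highest in the library with the highest endothelial sum. Calls of Robo2 held without any 1 library. Those of Robo1 were lost in the medulla gate without any library but medulla GFP+ library 2 (0.0582 to 0.215) and between the GFP- tissues without any 1 library (0.0552 to 0.264). In the older mice alone the Robo2 call in GFP+ cells was lost (0.0840), and that in GFP- cells and both Robo1 calls were kept. The medulla gate call of Robo1 was lost with voom (0.0802) and with only the groups compared (0.146).

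Netrins were scarce. Ntn1 was at 0 to 3.03 CPM and Ntn4, a basement membrane netrin, at 0.940 to 6.22 CPM over all libraries, and neither was called. The Unc5 receptors Unc5a and Unc5c were found mainly in the medulla. Unc5a was at 6.14, 8.24 and 7.57 CPM in medulla GFP+ and 0.0891, 0.387 and 0.225 CPM in cortex GFP+ libraries (log2 -4.94, SE 0.60, adjusted p = 0.000777), and at 3.07 and 5.89 CPM in medulla GFP- against 0.336, 0.294 and 0.158 CPM in cortex GFP- libraries (log2 -4.06, SE 0.60, adjusted p = 0.00222). Unc5c was at 20.0, 15.0 and 11.5 CPM in medulla GFP+ and 0.223, 0 and 1.17 CPM in cortex GFP+ libraries (log2 -5.05, SE 1.02, adjusted p = 0.00918), and at 19.7 and 7.84 against 1.05, 3.89 and 3.19 CPM in GFP- cells, which missed the threshold (log2 -2.35, SE 0.93, adjusted p = 0.108). These 3 calls held without any 1 library, and that of Unc5a in GFP+ cells was lost with the older mice only (0.0685). Unc5b, at 0.134 to 4.75 CPM, was called in no comparison. Chromaffin markers were called lower in the cortex for 8 of 8 genes in each gate, as were Epha5, Robo2 and Unc5a, and their part was not tested.

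**Figure D5:**
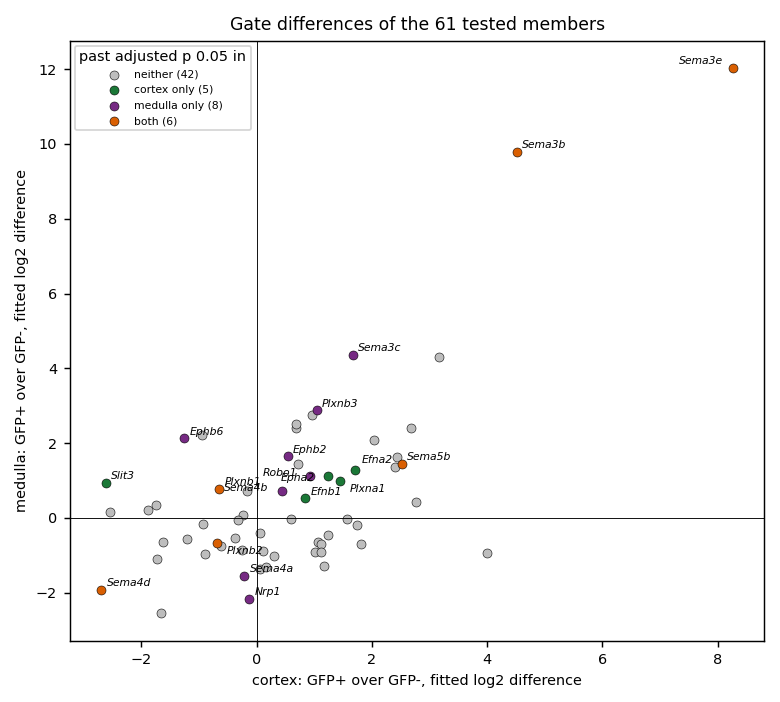
Fitted log2 difference between GFP+ and GFP- cells of the 61 tested members in the cortex (x axis) and the medulla (y axis), coloured by whether edgeR called them in neither (42), the cortex alone (5), the medulla alone (8) or both (6). Of the 6, only Plxnb1 lies in opposite directions, and the position of Sema3e depends on the prior count because its GFP- groups hold no count.

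Whether the gate difference itself differed between tissues was tested as an interaction, the cortex gate difference minus that of the medulla. It called 3 members, all lower (4.92% of 61), where 1.61% of all genes were called, 0.857% higher and 0.756% lower. The interaction was -3.55 for Slit3 (SE 0.65, adjusted p = 0.0305), -3.39 for Ephb6 (SE 0.69, adjusted p = 0.0420) and -1.43 for Plxnb1 (SE 0.25, adjusted p = 0.0295). In these 3 genes the mean of GFP+ cells lay below that of GFP- cells in the cortex and above it in the medulla. All are sensitive to single libraries. The call of Ephb6 was lost without any 1 of the 11 (0.0517 to 0.0946), that of Plxnb1 without cortex GFP+ library 1, 2 or 3, cortex GFP- library 1 or 2 or either medulla GFP- library (0.0510 to 0.0839), and that of Slit3 without cortex GFP- library 1, 2 or 3, cortex GFP+ library 2 or 3 or medulla GFP- library 2 (0.0606 to 0.114). With the older mice only, a fit in which medulla GFP+ cells have 1 library, the interaction was -4.07 for Slit3, -3.22 for Ephb6 and -1.50 for Plxnb1 and none was called (0.175, 0.329 and 0.164). Over 18 alternatives for each gene it lay between -4.17 and -3.09 for Slit3, -4.06 and -2.93 for Ephb6 and -1.59 and -1.26 for Plxnb1. Age as a factor ended the calls of Ephb6 (0.0948) and Plxnb1 (0.0685), and a replicate block that of Ephb6 (0.0859). The remaining members were not shown to differ in their gate response between tissues, Sema3b included (log2 -5.27, SE 1.80, adjusted p = 0.180).

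Compared between genes, levels per length (counts per kilobase, scaled so that every library had the same total over all genes) put different members first in each group. Cortex GFP+ cells were led by Robo1 (18.1 ± 0.638, SD, n = 3), Sema4b (16.9 ± 2.29), Efnb1 (13.9 ± 1.52), Sema5b (13.8 ± 1.04) and Plxnb1 (13.3 ± 1.14), and the libraries of each overlapped with those of the next in this order. Cortex GFP- cells were led by Plxnb2 (24.1 ± 2.63, SD, n = 3) and Plxnb1 (23.8 ± 3.17), which overlapped. Every library of both lay above those of Plxnd1 (14.5 ± 3.57) and Sema4b (14.3 ± 1.43), which overlapped, and Robo1 (10.9 ± 0.828) lay below Sema4b and overlapped with Plxnd1. In medulla GFP+ cells Sema3b (29.9 ± 21.0, SD, n = 3) and Sema3c (16.7 ± 14.0) stood among Sema4b (20.3 ± 4.22), Plxnb2 (17.2 ± 1.12) and Plxnb1 (15.3 ± 3.39), and the wide spread of Sema3b and Sema3c came from library 2. Neighbours in the order of the means overlapped in this group. Medulla GFP- cells were led by Plxnb2 (27.2 ± 2.17, SD, n = 2), Sema4d (24.5 ± 3.33), Nrp1 (23.0 ± 6.91), Plxnd1 (19.0 ± 2.91) and Efna1 (15.0 ± 9.20), whose neighbours in this order all lie within their spread. Summed over the 65 members, this level was 157 to 196 in cortex GFP+, 162 to 196 in cortex GFP-, 246 to 355 in medulla GFP+ and 206 to 274 in medulla GFP- libraries. Semaphorins made up 41.6 to 51.1 of it in cortex GFP+ and 79.1 to 161 in medulla GFP+ libraries.

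Of 67 other genes of these pathways (co-receptors, adhesion partners, GTPase regulators and adaptors), listed with earlier results of these data known, 60 were tested. Between the cortex gates 12 were higher and 7 lower in GFP+ cells (20.0% and 11.7%), beside 7.14% and 7.59% of all genes, and between the medulla gates 13 were higher and 7 lower (21.7% and 11.7%), beside 10.2% and 11.1%. The adhesion molecules L1cam and Chl1, partners of neuropilins, were higher in each tissue. L1cam lay at 10.7 ± 1.77 CPM in cortex GFP+ cells against 1 count in the cortex GFP- libraries, and at 118 ± 53.2 CPM in medulla GFP+ against 16.5 ± 0.202 CPM in medulla GFP- cells (log2 2.84, SE 0.37, adjusted p = 0.000560). Chl1 was higher by 7.72 (SE 1.14, adjusted p = 0.00179) in the cortex and 7.10 (SE 1.11, adjusted p = 0.00153) in the medulla. Nrcam had 94 counts in cortex GFP+ and 0 in cortex GFP- libraries, a level at least 36.6-fold higher, and Dpysl4 had 961 counts in medulla GFP+ and 0 in medulla GFP- libraries, at least 248-fold higher. Trim9 was higher in medulla GFP+ cells by 5.32 (SE 1.39, adjusted p = 0.0282). Of the 5 called lower in GFP+ cells in both tissues, the largest differences were those of Vav3 (log2 -5.09 and -4.98 in cortex and medulla), Fes (-3.51 and -4.26) and Evl (-1.83 and -3.41), genes well known from blood cells.

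Between tissues, 1 of these pathway genes was higher and 16 lower in cortex than in medulla GFP+ cells (1.67% and 26.7%, beside 6.04% and 9.45% of all genes), and 4 were higher and 16 lower in GFP- cells (6.67% and 26.7%, beside 8.06% and 10.6%). Trim67 (130 counts) and Grip1 (38 counts) had no count in cortex GFP+ libraries and were at least 43.8-fold and 12.8-fold higher in medulla GFP+ cells. Crmp1, a mediator of semaphorin signals, was lower in cortex GFP+ cells (log2 -6.99, SE 0.91, adjusted p = 0.00103). In GFP- cells L1cam (856 counts), Rnd1 (277 counts) and Nrcam (31 counts) of the medulla stood against 1, 3 and 0 counts in the cortex. Dock1, an engulfment and migration factor, was higher in the cortex in GFP+ (log2 0.91, SE 0.16, adjusted p = 0.00502) and GFP- cells (log2 0.97, SE 0.19, adjusted p = 0.00683), where the netrin receptor Neo1 (log2 1.09, SE 0.18, adjusted p = 0.00375) and Mical3 (log2 1.47, SE 0.46, adjusted p = 0.0499) were also higher. The interaction called L1cam and Pitpna (log2 1.13, SE 0.19, adjusted p = 0.0271) higher and Dpysl2 (log2 -1.57, SE 0.30, adjusted p = 0.0339) lower.

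In the authors' deposited tables, members with an adjusted p under 0.05 were fewer. The settings of their test were not given, and it may ask for another difference than the edgeR test. Plxnb2 between the cortex gates, for example, had a log2 of -0.69 (SE 0.138) there and was not under 0.05. Their counts are therefore not like for like with those above. Between the cortex gates Sema3e and Sema5b were higher and Sema4d and Slit3 lower in the authors' deposited table, where 3.64% of all its genes with an adjusted p were under 0.05 (1.61% higher and 2.03% lower). Between the medulla gates Sema3b and Sema3e were higher and Sema4d was lower in the authors' deposited table, where 6.13% of all its genes were under 0.05 (2.62% higher and 3.51% lower). Between cortex and medulla GFP+ cells the authors' deposited table gave 12 members as lower, namely Epha5, Ephb6, Plxna4, Plxnb3, Robo2, Sema3d, Sema3e, Sema4d, Slit2, Slit3, Unc5a and Unc5c, and 0 as higher, where 4.09% of all its genes were under 0.05 (3.59% lower and 0.496% higher).

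Of the 65 members, 56 had 72 windows of 250 bases in the RefSeq table (GRCm38.p6). The GC box GGGCGG was found, on either strand, in 70.8% of the member windows and in 32.7% of all 32851 windows of this length. The SOX core ACAAAG was found in 9.72% against 16.5%, the E-box CANNTG in 47.2% against 66.2%, the CCAAT box CCAAT in 26.4% against 33.8%, the TATA box TATAAA in 2.78% against 12.4%, and the AP-1 site TGANTCA in 4.17% against 6.75%. These motifs were counted separately, so that matches of different motifs may overlap. A match describes the sequence and not the binding of a factor.

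Exons of 15 members overlap those of another gene, and the libraries carry no strand, so reads there cannot be assigned to one gene. Among called members, the overlaps on the opposite strand were 34 bases of Unc5a with Hk3 (1604 counts over all libraries), 257 bases of Plxnb1 with Gm7628 (135 counts), 970 bases of Plxna1 with Gm26811 (1 count), 110 bases of Plxna4 with an antisense gene (0 counts) and 118 bases of Unc5c with Gm15688 (2 counts).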

How the data were processed

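The authors deposited a table of gene counts for 11 libraries and 3 tables of their own comparisons. Per the submitters' processing notes, bcl2fastq 2.19.1, GSNAP, featureCounts 1.6.0, DESeq2 1.18.1 and the mm10 build were used. Per the labels' protocols, cDNA was primed on poly(A), template-switched and amplified over 17 cycles, with no molecular identifiers and no strand, and PCR reads without identifiers are not independent molecules. The authors' tables hold, per gene, log2 fold changes, adjusted p-values, a score (the test statistic), a signal (counts divided by a size factor per library) and the percent GC, per the file headers. Replicates were not pooled in the count table.

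Counts were tested as deposited with edgeR 4.0.16 (R 4.3.3), in 1 quasi-likelihood fit of all 11 libraries with a mean per group, after filterByExpr and trimmed mean normalization. P-values were adjusted by Benjamini-Hochberg over 20893 of 49671 genes, with a threshold of 0.05. Rows of 92 spike sequences (10 counts) were left out. The SE of a log2 difference is its size divided by the root of the F statistic. The spread rests on 7 residual degrees of freedom (common biological coefficient of variation 0.479). On simulated counts for the cortex gate, 14 of 50 genes changed by a log2 of 1, 40 of 50 by 2, 48 of 50 by 3 and 35 of 50 by -2 were called, and 6 of 19782 unchanged genes. Genes of the lowest levels were not among those changed, every other mean was the same in all groups, and the spread came from the fit. These shares therefore do not carry over to scarce members. No replicate libraries agreed within sampling noise (chi-square over degrees of freedom from 29.1 to 104), so none was merged as a library deposited more than once. This check does not show that they are independent samples.

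Alternatives were DESeq2 1.42.0, voom (limma 3.58.1), library totals alone, no filter, only the groups compared, a replicate block, age as a factor, the older mice only, and leaving out each library. Named were up to 10 called members per direction and comparison by size of the log2 difference, further called members, the 5 highest per length in each group, the interaction calls, and a list of well known members whether called or not. Sequences came from RefSeq (GRCm38.p6), coordinates from the authors' tables (mm10). The members and lists were chosen with earlier results of these data known. The value of 1 chromaffin marker is not reported here.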

Additional observations from a re-analysis of the deposited data

Results flagged for a closer look

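For 3 members the gate difference differed between cortex and medulla by edgeR's interaction test over 20893 genes. The cortex gate difference minus that of the medulla was -3.55 on the log2 scale for Slit3 (adjusted p = 0.0305), -3.39 for Ephb6 (adjusted p = 0.0420) and -1.43 for Plxnb1 (adjusted p = 0.0295). Plxnb1 was called in each tissue, in opposite directions, Slit3 in the cortex alone and Ephb6 in the medulla alone. The 3 medulla GFP+ libraries span both ages while both medulla GFP- libraries come from the older mice. With the older mice only, where medulla GFP+ cells have 1 library, 0 of these calls remained (adjusted p = 0.175 for Slit3, 0.329 for Ephb6 and 0.164 for Plxnb1), and the differences were -4.07, -3.22 and -1.50. With so few libraries the lost calls say nothing about age. Groups of 2 or 3 libraries were too small to look for single libraries far from the others.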

How the results depend on the processing

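Of 58 called member results, 58 kept their call with DESeq2, 55 with library totals alone, 55 without a filter on low counts, 52 with voom, 48 of 54 with only the groups compared (not run for the interaction, which needs all groups), 47 with age as a factor, 47 with a replicate block and 20 with the older mice only, and 0 changed direction. The older mice hold 7 libraries, 1 of them medulla GFP+, so that test has fewer samples. Over all genes, too, it called fewer in every comparison than the main fit. There, 3 members were called for the cortex gate, 5 for the medulla gate, 5 between the GFP+ tissues and 0 for the interaction. DESeq2 called 19 members for the cortex gate and 6 for the interaction, and age as a factor 1 for the interaction. Over all 20893 genes DESeq2 called 4558 and 1559, beside 3078 and 337 in the main fit, and age as a factor 93 for the interaction. The cause was not tested. Leaving out 1 library gave 7 to 10 called members for the cortex gate, 8 to 13 for the medulla gate, 12 to 16 between the GFP+ tissues, 8 to 14 between the GFP- tissues and 0 to 2 for the interaction. Leaving out a medulla GFP- library leaves 1, which is assumed to vary like the other groups. In the other refits, calls over all genes were also fewer. They were 1959 to 2405 for the cortex gate (3078 in the main fit) and 3589 to 3922 for the medulla gate (4461). Between the GFP+ tissues they were 2006 to 2874 (3236), between the GFP- tissues 2141 to 2832 (3892) and for the interaction 60 to 265 (337). With library totals alone the median interaction over all genes moved from -0.02 to -0.19.

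Correlations of deviations from the group means were -0.01 to 0.11 over same-numbered pairs of libraries and -0.09 to 0.06 over the other pairs. In the cortex gates they were 0.05 to 0.11 against -0.09 to -0.01, and in the GFP+ tissues 0.05 to 0.09 against -0.06 to 0.001. With only 2 medulla GFP- libraries, correlations with them are equal and opposite by construction (0.028 and -0.028 for medulla GFP+ library 1). These small values do not settle whether the numbers pair libraries. Medulla GFP+ library 2 came from mice about 2.5 months old and the other libraries numbered 2 from mice about 3.5 months old. By age it therefore does not share their mice, and the replicate block still joins it with them. With the replicate block, 9 members were called for the cortex gate, 13 for the medulla gate, 16 between the GFP+ tissues, 14 between the GFP- tissues and 2 for the interaction. Over all genes the block called 2815, 3985, 2908, 3339 and 176 in the same order, beside 3078, 4461, 3236, 3892 and 337 in the main fit. By edgeR's adjusted p, the block ended the cortex gate calls of Efna2 (0.0669) and Efnb1 (0.0610). In the medulla gate it ended those of Sema3c (0.0545), Plxnb3 (0.0564), Sema5b (0.0664) and Robo1 (0.0524). Also lost were Sema3e (0.0630), Slit1 (0.0866) and Sema4a (0.0738) between the GFP+ tissues, Slit1 between the GFP- tissues (0.0938) and the Ephb6 interaction (0.0859). Differences in members below about 1 CPM were limited by depth and by 2 or 3 libraries a group.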
